A study of Mus musculus with 2 samples.

Results

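The small leucine-rich proteoglycans (SLRPs) are a family of secreted matrix proteins, and 10 of their genes were examined here: *Dcn*, *Bgn*, *Fmod*, *Lum*, *Prelp*, *Ogn*, *Aspn*, *Epyc*, *Omd* and *Chad*. They were taken as a named family and not by a rule on their values, but earlier results of these data were known when the family was chosen. Every probe set annotated to 1 of these genes alone was used. This gave 21 probe sets for the 10 genes, of 18193 genes named on the array, and no probe set carried a member together with another gene. RNA was compared between superficial zone (SFZ) cells, isolated from the articular cartilage of the femoral and tibial joint, and costal chondrocytes (CC). Both came from ICR mice at postnatal day 4 and were cultured in DMEM with 10% FBS, and the labels give neither of them a genetic change or a treatment. Each cell type was measured on 1 Affymetrix mouse genome array, so a difference has no replicate error to be read against and is given without a test.

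SLRP proteins fold as a curved stack of leucine-rich repeats that binds collagen. Most of them sit on collagen fibrils, where they set fibril diameter and spacing, and several also hold growth factors of the TGF-β family in the matrix. In cartilage they line the collagen II fibrils around chondrocytes, and they are also abundant in tendon, bone, skin and cornea. Decorin, biglycan and epiphycan usually carry chondroitin or dermatan sulfate chains. Fibromodulin, lumican, osteomodulin and osteoglycin can carry keratan sulfate, and asporin, PRELP and chondroadherin are usually found without a chain.

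The values are MAS5 signals, linear intensities that summarise the short probes against the 3′ part of a transcript. Levels of different probe sets cannot be set against each other, so each ratio is taken within a probe set. A probe set counts as higher in a cell type where its signal there was over 100 and its ratio to the other array was over 2. Background was set from 87 probe sets of chemosensory receptors, genes not used in cartilage, at the level that 95% of them stayed under, which was 28.2 for SFZ cells and 26.0 for CC. Of the 21 SLRP probe sets, 19 were above background on both arrays, 1 on the SFZ array alone and 1 on neither. The log2 ratio, SFZ cells over CC throughout, had a median of -0.15 over all probe sets above background on both. That median became 0.03 with equal array medians and 0.08 with quantile normalization, and the share of probe sets past a threshold that were higher in SFZ cells went from 17.9% to 32.1% and 37.6%. Among the chondrocyte markers *Col2a1* had signals of 8251 and 9074 (SFZ cells first, here and where no array is named), and *Acan* 7772 and 5588. The surface marker *Prg4* was at 323 and 73.6, whereas *Gdf5*, another such marker, was at 93.1 and 74.2 and passed neither threshold. *Prg4* was the only 1 of 9 superficial zone markers above background to pass toward SFZ cells. Toward CC 3 of them passed, namely *Thbs4*, *Vcam1* and, on dimmer probe sets alone, *Clu*. Among all genes above background on at least 1 array, 2.00% passed toward SFZ cells and 9.00% toward CC.

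The SLRP genes fell into 3 groups. *Aspn*, *Prelp*, *Omd* and *Ogn* were higher in CC, *Chad* was higher in SFZ cells, and *Dcn*, *Bgn*, *Fmod*, *Lum* and *Epyc* passed neither threshold. Counted by probe set, 6 of 21 were higher in CC, where 3.58% of all probe sets on the array were, and 1 was higher in SFZ cells, where 0.779% were. Because the SLRP probe sets are mostly bright, a closer background is the probe sets over the minimum signal in the cell type in question. Of those over it in CC 10.6% were higher in CC, and of those over it in SFZ cells 2.52% were higher there. The 21 SLRP probe sets were not filtered in that way. Counted by gene, 4 of 10 were higher in CC, against 6.17% of all genes and 9.00% of those above background on at least 1 array. In SFZ cells 1 of 10 was higher, against 1.37% and 2.00%. The median log2 ratio of the 10 genes was -0.34, beside -0.18 over the 12481 genes above background on at least 1 array. After quantile normalization these medians were -0.27 and 0.05.

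**Figure D1:**
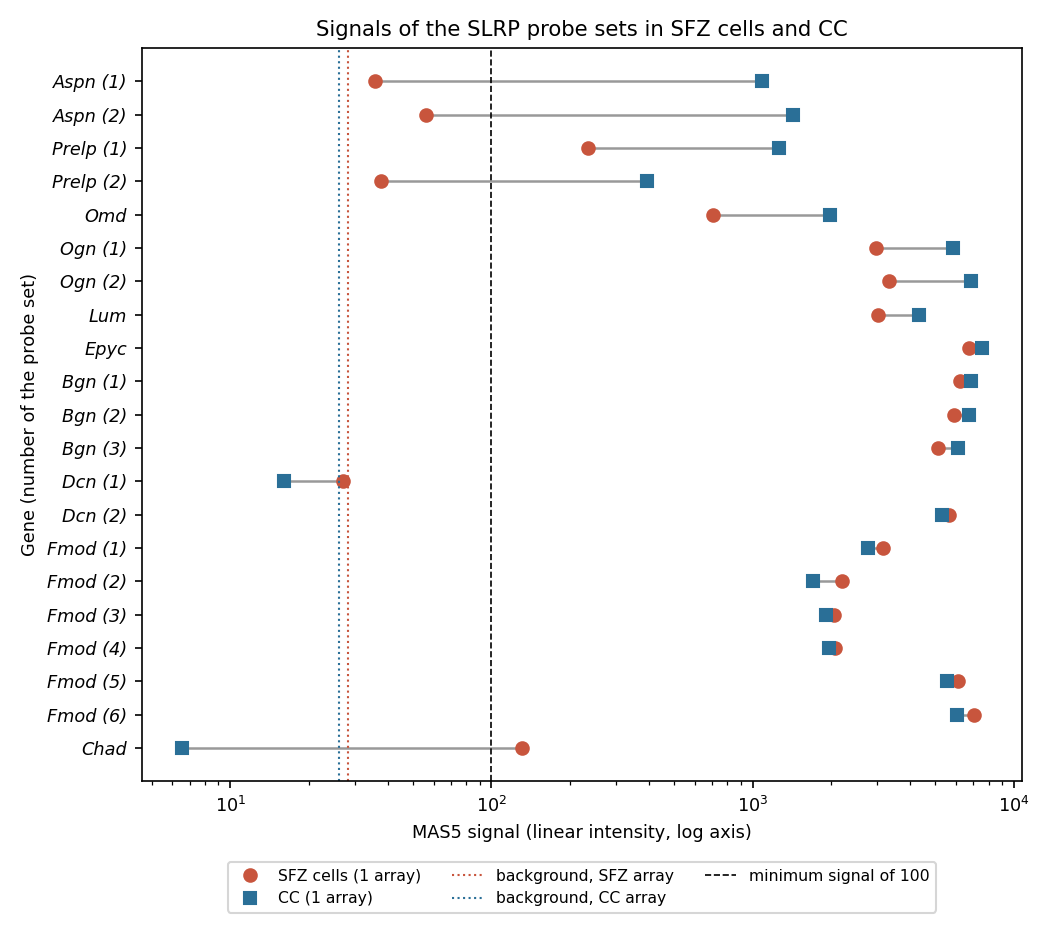
MAS5 signals of the 21 SLRP probe sets on a log axis, with 1 SFZ array (circles) and 1 CC array (squares) joined by a grey line for each probe set. Background (28.2 and 26.0) is dotted and the minimum signal of 100 is dashed. The lines are long for *Aspn*, *Prelp* and *Chad* and short for *Bgn*, *Epyc* and *Fmod*.

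*Aspn* encodes asporin, a class I SLRP with a run of aspartate residues that binds collagen and calcium and restrains TGF-β signaling. Its probe sets were at 35.7 and 56.0 in SFZ cells and at 1088 and 1425 in CC. Both SFZ signals were only a little over background, whereas both CC signals were well over the minimum. The ratios of CC over SFZ cells were 30.5 and 25.4, the highest of the family in that direction. Low signals weigh heavily in such ratios, and with 64 added to both signals they were 11.6 and 12.4. The 2 probe sets differed by 0.26 on the log2 scale, near the median of 0.22 over the 3578 genes with more than 1 probe set above background on both arrays and over 100 on at least 1.

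*Prelp* encodes a class II SLRP with a basic tail that binds heparan sulfate and links collagen to basement membranes. Its signals were 235 and 37.9 in SFZ cells and 1259 and 394 in CC. Both probe sets were higher in CC, with ratios of 5.35 and 10.4. They disagreed by 0.96 on the log2 scale, more than the 0.64 that marked the 90th percentile over the same 3578 genes. With 64 added to both signals the ratios were 4.42 and 4.49.

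*Omd* encodes osteomodulin, a class II SLRP of bone and other mineralizing tissue. Its only probe set read 705 in SFZ cells against 1976 in CC, 2.80-fold toward CC. The signal was thus well over background in both cell types, and the ratio was 2.46 with equal medians and 2.47 after quantile normalization.

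*Ogn* encodes osteoglycin, also called mimecan, a class III SLRP found on collagen fibrils of many connective tissues. Its probe sets were at 2972 and 3339 in SFZ cells and at 5826 and 6850 in CC. The ratios toward CC were 1.96 and 2.05, so that only the second passed. *Ogn* lies at the threshold: on that probe set the ratio was 1.80 with equal medians and 1.97 after quantile normalization, and under either scaling *Ogn* passed on neither probe set.

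*Chad* went the other way. It encodes chondroadherin, a class IV SLRP of cartilage that binds collagen II and an integrin of chondrocytes. Its only probe set was at 131 in SFZ cells, a little over the minimum, and at 6.52 in CC, which is under background. *Chad* was therefore at least 5.04-fold higher in SFZ cells. *Acsf2*, which overlaps it in the annotation, was under background on both arrays. With 64 added to both signals the ratio was 2.77.

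*Dcn* and *Bgn* encode decorin and biglycan, the class I SLRPs that bind both collagen and TGF-β. *Dcn* read 5649 in SFZ cells against 5289 in CC, a ratio of 1.07. Its other probe set, at 26.9 and 16.1, was under background on both arrays and gives no ratio. The 3 probe sets of *Bgn* were at 6239, 5926 and 5141 in SFZ cells and at 6860, 6736 and 6102 in CC. Their ratios lay between 0.842 and 0.909, a slight lean toward CC. They ran from 0.960 to 1.04 with equal medians and from 0.874 to 0.916 after quantile normalization.

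*Fmod* encodes fibromodulin, which governs collagen fibril maturation and cross-linking. All 6 of its probe sets were somewhat higher in SFZ cells, with signals from 2047 to 7011 in SFZ cells and from 1704 to 6052 in CC. The ratios ran from 1.06 to 1.29 and none reached 2. Most of these probe sets carry the suffix that marks probes shared between transcripts, and they can overlap, so they are not 6 independent readings. *Lum* encodes lumican, a keratan sulfate SLRP best known for the transparency of the cornea. Its only probe set read 3016 in SFZ cells against 4321 in CC, or 1.43-fold toward CC. *Epyc*, which encodes epiphycan of the growth plate, was at 6729 and 7538, a ratio toward CC of 1.12, which was 0.983 with equal medians and 1.10 after quantile normalization.

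**Figure D2:**
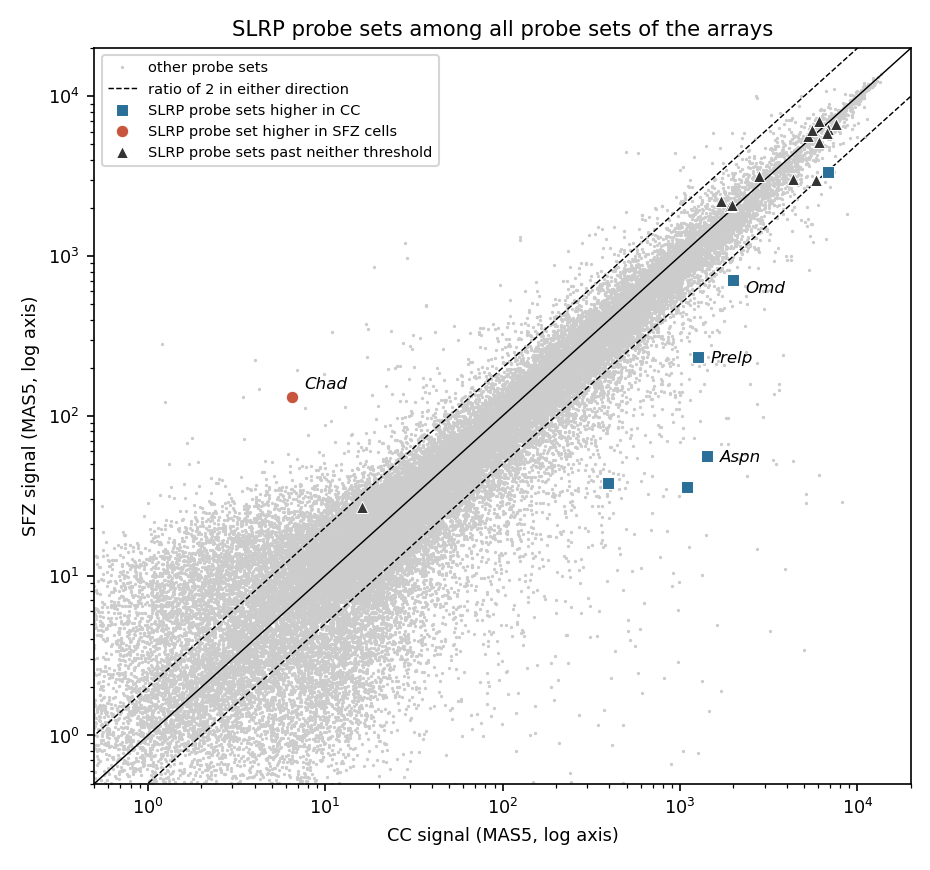
SFZ signal against CC signal of all probe sets, on log axes, with 1 array for each cell type; dimmer probe sets beyond the axes are not drawn. Squares, the circle and triangles are SLRP probe sets higher in CC, higher in SFZ cells and past neither threshold, the solid line marks equal signals and the dashed lines a ratio of 2. The 6 squares lie under the lower dashed line, with that of *Ogn* at 2.05 on its edge.

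Grouped by the chain their proteins usually carry, a grouping made after the values were seen, the SLRP genes differed in how far their ratios spread. The 3 genes of chondroitin or dermatan sulfate SLRPs, *Dcn*, *Bgn* and *Epyc*, had ratios of SFZ cells over CC from 0.842 to 1.07 over 5 probe sets above background. None of these 3 passed a threshold. The 4 keratan sulfate genes ran from 0.357 for *Omd* to 1.29 for *Fmod* over 10 probe sets, and 2 of them, *Omd* and *Ogn*, were higher in CC. The 3 genes of SLRPs without a chain, *Aspn*, *Prelp* and *Chad*, passed a threshold in every case, 2 toward CC and 1 toward SFZ cells. By the usual family classes, class I held 1 gene higher in CC of 3, class II 2 of 4 and class III 1 of 2. *Chad*, the 1 gene of class IV, was higher in SFZ cells. The class III gene was *Ogn*, which passed on neither probe set with equal medians or after quantile normalization. Each group here held only a few genes. Of all genes above background on at least 1 array, 9.00% were higher in CC and 2.00% in SFZ cells.

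SLRP genes lie in clusters, and the direction of the ratios could be followed along 3 of them in the RefSeq order of coding genes. On chromosome 13 *Ecm2*, *Aspn*, *Omd* and *Ogn* follow each other. *Ecm2*, a relative of the family, was under background on both arrays, and the other members of the row were all higher in CC, with unequal ratios of 25.4, 2.80 and 2.05 on their brightest probe sets. *Ogn* was past the threshold only on the deposited scale, and not with equal medians or quantile normalization. Beside them *Bicd2*, *Ippk*, *Cenpp*, *Nol8* and *Iars* had ratios toward CC of 1.05, 1.54, 1.56, 0.876 and 0.873. *Cenpp* spans *Aspn*, *Omd* and *Ogn* in the annotation, and its own signals were 65.4 in SFZ cells and 102 in CC. On chromosome 10 *Dcn*, *Lum*, *Kera* and *Epyc* follow each other, and none of them passed a threshold. On chromosome 1 *Prelp*, higher in CC, lies next to *Fmod*, whose brightest probe set leaned to SFZ cells at 7011 against 6052, so neighbours within a cluster could differ. Of the 28 flanking genes named on the array around the 3 clusters, *Bgn* and *Chad*, 19 were above background and 0 passed in either direction. Over all 12481 genes above background 9.00% were higher in CC and 2.00% in SFZ cells. The flanking genes were chosen as the 3 nearest coding genes on each side after the SLRP values had been seen.

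**Figure D3:**
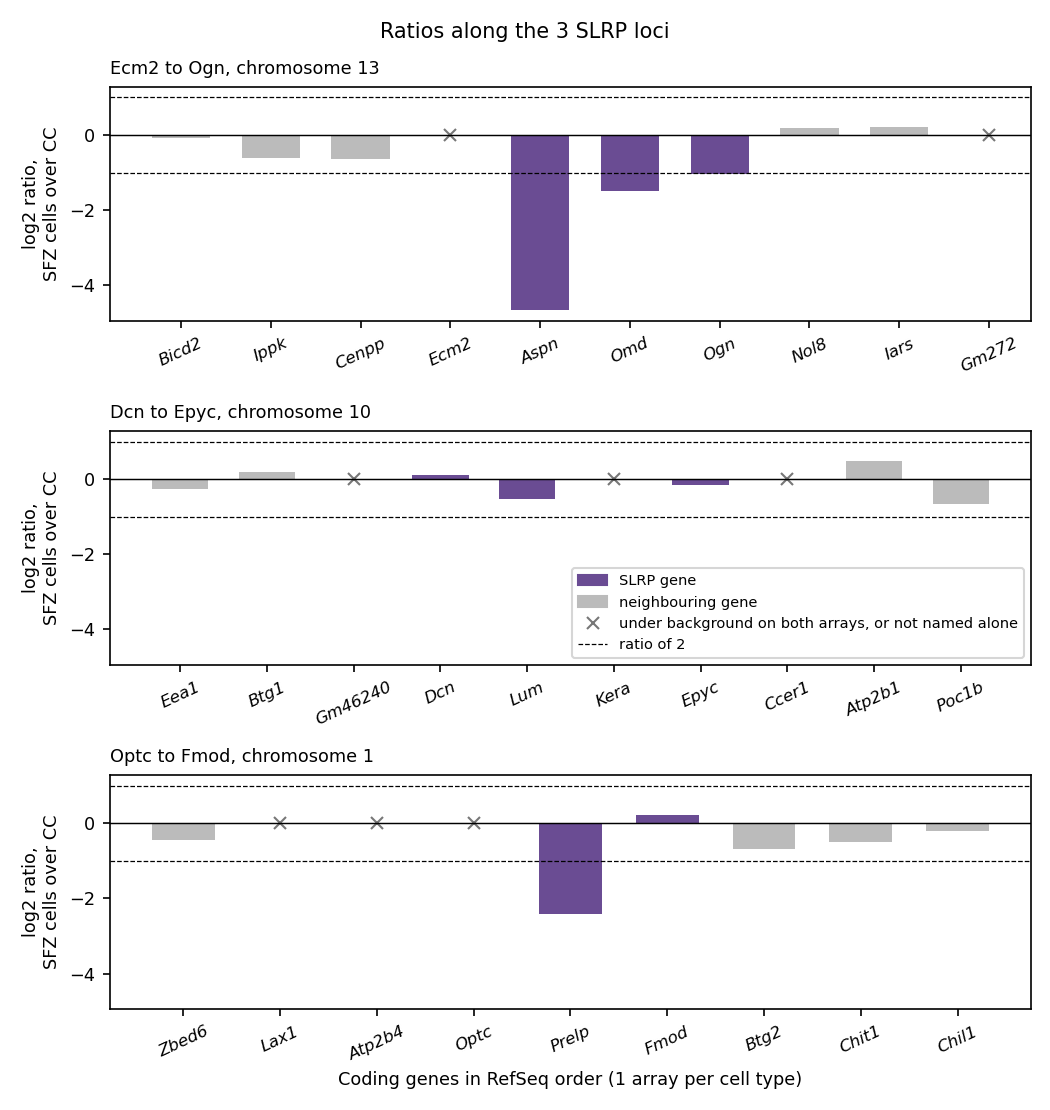
Log2 ratio of SFZ cells over CC for coding genes in RefSeq order along 3 SLRP clusters, on the brightest probe set of each gene, with 1 array per cell type and signals raised to background. Dark bars are SLRP genes, light bars neighbouring genes, crosses mark genes under background on both arrays or not named alone, and dashed lines a ratio of 2. *Aspn*, *Omd* and *Ogn* drop to -4.67, -1.49 and -1.04 between neighbours that stay within the dashed lines.

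The sequence just before the start of *Aspn*, *Omd* and *Ogn* is shown beside that of *Chad*, because the first 3 are neighbours with higher deposited signals in CC, *Ogn* only at the threshold, and *Chad* is the member higher in SFZ cells. Each is the 250 bases before the RefSeq start in GRCm38.p6, on the strand of the gene. Capitals mark matches on either strand, which may overlap, to TATAAA (the TATA box), to CCAAT (the CCAAT box), to GGGCGG (the GC box) and to AACAAT (a core bound by SOX factors).
Aspn, chr13:49544193-49544442, plus strand: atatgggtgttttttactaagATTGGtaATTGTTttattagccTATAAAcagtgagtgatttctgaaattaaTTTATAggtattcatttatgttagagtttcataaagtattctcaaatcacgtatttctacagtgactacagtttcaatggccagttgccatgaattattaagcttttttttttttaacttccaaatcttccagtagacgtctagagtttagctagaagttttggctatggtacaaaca
Omd, chr13:49582212-49582461, plus strand: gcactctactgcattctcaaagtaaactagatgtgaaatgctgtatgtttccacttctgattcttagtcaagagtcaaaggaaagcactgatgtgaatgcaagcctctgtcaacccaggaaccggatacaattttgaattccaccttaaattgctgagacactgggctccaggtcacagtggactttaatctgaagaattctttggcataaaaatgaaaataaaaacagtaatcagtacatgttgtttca
Ogn, chr13:49607765-49608014, plus strand: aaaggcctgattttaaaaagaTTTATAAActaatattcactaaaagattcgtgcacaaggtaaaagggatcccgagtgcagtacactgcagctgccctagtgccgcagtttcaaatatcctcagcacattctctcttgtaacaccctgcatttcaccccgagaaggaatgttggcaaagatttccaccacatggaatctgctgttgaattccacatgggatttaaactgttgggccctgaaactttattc
Chad, chr11:94564797-94565046, plus strand: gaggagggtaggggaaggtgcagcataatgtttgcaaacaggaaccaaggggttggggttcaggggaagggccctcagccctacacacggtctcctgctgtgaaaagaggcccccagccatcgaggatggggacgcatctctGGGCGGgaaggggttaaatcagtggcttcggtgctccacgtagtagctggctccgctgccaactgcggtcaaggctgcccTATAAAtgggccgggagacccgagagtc
The stretch of *Chad* held TATAAA 28 bases before the start and GGGCGG 108 bases before it. That of *Aspn* held TATAAA 207 bases before the start and, on the other strand, 178 bases before it, together with CCAAT and AACAAT at 229 and 222 bases. That of *Ogn* held TATAAA at 227 bases, overlapped by a match on the other strand at 229 bases, and that of *Omd* held none of the 4 motifs. Over all 32851 promoters of the same length, 12.4% held TATAAA on either strand, 33.8% CCAAT, 32.7% GGGCGG and 9.42% AACAAT. The share of G and C was 30% before *Aspn*, 38.4% before *Omd* and 42.0% before *Ogn*, against 60.4% before *Chad* and a median of 52.4% over all promoters. Among the other members, *Prelp*, higher in CC, had 55.6%, and *Epyc*, past neither threshold, had 39.2% and 31.2% at its 2 starts. A link between this share and the ratios was not tested. *Bgn* had 64.4% and *Fmod* 51.2%. These letters describe the reference sequence and were not tested for any function.

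Most other relatives of the family that the array names gave no signal above background. Of 7 named on the array, *Kera*, *Nyx*, *Optc*, *Nepn* and *Ecm2* were under background in both cell types. *Kera* encodes the corneal SLRP keratocan, and *Nyx* and *Optc* encode SLRPs of the eye. *Podn*, encoding podocan, was at 154 and 160. *Chadl*, a relative of *Chad*, was at 262 and 133, a ratio of SFZ cells over CC of 1.97 that lay just under the threshold, and it passed after quantile normalization.

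Of 15 genes of the collagens and fibrils that SLRPs bind, 4 were higher in CC (3 after quantile normalization) and 0 in SFZ cells, where 9.00% and 2.00% of all genes above background were. Their median log2 ratio of -0.23 stood beside -0.18 over all genes. *Col14a1*, a collagen of fibril surfaces, was at 169 and 786, *Eln* (elastin) at 69.6 and 230 and *Col5a3* at 69.0 and 166. *Col3a1* passed on its dimmer probe set, at 374 and 1346, but the ratio toward CC was 1.33 on the brighter. *Col1a2* was at 8677 and 8919.

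Among the enzymes that build chondroitin and dermatan sulfate, 3 of 22 were higher in CC and 1 in SFZ cells. Of all genes above background on at least 1 array, 9.00% were higher in CC and 2.00% in SFZ cells. The median over the enzyme list was -0.22, or 0.05 after quantile normalization. *Chsy3*, a chondroitin synthase, was at 645 and 243. *Ust*, a uronyl sulfotransferase, was at 54.4 and 159, and *Pxylp1*, a phosphatase of the linker region, at 141 and 676. *Chst15*, a sulfotransferase, was at 142 in CC and under background in SFZ cells, at least 5.05-fold higher in CC. *Xylt2*, *B4galt7*, *B3gat3*, *Dse* and *Chst11*, which start the chain, convert it or sulfate it, had ratios of SFZ cells over CC from 0.870 to 1.24. Other enzymes past neither threshold lay outside that range on both sides, such as *Chst14* at 0.633 and *Chsy1* at 1.47. Of 6 keratan sulfate genes above background 1, *B3gnt2*, was higher in SFZ cells, at 1027 and 427. The median over the list was -0.65, or -0.37 after quantile normalization and -0.40 with 64 added. For *Chst1* and *Chst2* of this list the SFZ signals were under background, so their ratios are bounds. Of 3 tyrosine sulfation genes *Slc35b2*, the transporter of the sulfate donor, passed in CC on the dimmer of its 2 probe sets, at 53.5 and 161, and the median was -0.11, or 0.12 after quantile normalization.

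Of 3 propeptide processing genes, with a median of 0.13, *Bmp1*, encoding the protease that removes the biglycan propeptide, was at 63.6 and 190. *Pcolce* and *Pcolce2*, enhancers of procollagen processing, had ratios of SFZ cells over CC of 1.10 and 1.78. Of 8 matrix proteases 6 were higher in CC, where 9.00% of all genes above background were, or 5 after quantile normalization. Their median log2 ratio was -1.43, beside -0.18 over all genes. *Mmp13*, the main collagenase of cartilage, was at 239 and 3784, *Mmp2* at 396 and 1137 and *Mmp14* at 600 and 1342. The aggrecanase genes *Adamts5* and *Adamts4* were at 336 and 854 and at 43.0 and 233, and *Mmp3* at 39.3 and 130. *Htra1* was at 1420 and 1381.

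As deposited, 9.00% of all genes above background on at least 1 array were higher in CC and 2.00% in SFZ cells. Of 16 receptor and growth factor genes above background 6 were higher in CC and 0 in SFZ cells, with a median of -0.15. After quantile normalization these were 4 and 2, with a median of 0.04. Among the TGF-β genes, whose products decorin, biglycan and asporin can bind, *Tgfb3* was at 65.9 and 443, *Tgfb2* at 517 and 1075 and *Tgfb1* at 45.8 and 42.7. The others higher in CC were *Bmp4*, the receptor gene *Egfr*, the integrin gene *Itga1* and *Cd14*, with ratios toward CC of 2.81, 2.86, 2.32 and 4.14. The Toll-like receptor genes *Tlr2* and *Tlr4*, whose products sense soluble biglycan, were at 157 and 103 and at 214 and 182, past neither threshold.

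Markers of several other cell types were also higher in CC. Over all genes above background on at least 1 array, 9.00% were higher in CC and 2.00% in SFZ cells. Of 12 fibroblast markers above background 8 were higher in CC (7 after quantile normalization). The brightest of these were *Col3a1*, *Postn*, *S100a4*, *Pdgfra*, *Thy1* and *Dpt*, and *Postn*, a gene of perichondrium and fibroblasts, was at 138 and 3394. The list summed to signals of 19129 and 30317. *Col1a2*, at 8677 and 8919, and *Col3a1*, at 6421 and 8516, weighed most in it and passed neither threshold on those probe sets. Sums here and below take the brightest probe set of every named gene, also under background, so bright probe sets dominate them. *Pi16* was under background on both arrays. All 11 skeletal muscle markers above background were higher in CC, among them the contractile genes *Actc1*, *Mylpf*, *Acta1*, *Myh3* and *Tnnc2* and the regulator *Myog*, with sums of 237 and 30015. *Myf5* and *Pax7* were under background on both arrays, and *Myod1* and *Myog* in SFZ cells. Of 5 tenocyte markers *Egr1*, *Tnmd* and *Thbs4* were higher in CC, with sums of 889 and 4356 and *Tnmd* at 87.2 and 747. *Scx*, at 54.7 and 68.9, and *Mkx*, at 29.2 and 53.8, passed neither threshold. *Egr1*, at 604 and 3092, weighed most in the sums of this list. *Kera* and *Cilp2* of that list were under background on both arrays. The adipocyte markers *Fabp4*, *Lpl*, *Adipoq* and *Pparg* were all higher in CC, with sums of 1016 and 10982, whereas *Lep* and *Cidec* were under background on both arrays. Of 5 leukocyte markers *Lyz2*, *Csf1r* and *Adgre1* were higher in CC (1 after quantile normalization), with sums of 400 and 1796. *Ptprc* and *Cd68* passed neither threshold, and *Cd3e* and *Cd79a* were under background on both arrays. Of 3 osteoblast markers *Ibsp* was higher in CC, with sums of 134 and 531, whereas *Dmp1* and *Phex* were under background on both arrays. *Sp7*, at 39.8 and 67.6, and *Alpl*, at 56.3 and 60.8, passed neither threshold. Of 4 endothelial markers and of 8 housekeeping genes 0 passed in either direction, with *Tek* and *Vwf* under background on both arrays. Of 9 superficial zone markers *Prg4* was higher in SFZ cells (2 genes after quantile normalization) and *Thbs4*, *Vcam1* and *Clu* in CC, with sums of 2473 and 3078. *Clu* passed only on dimmer probe sets, and its brightest had a ratio toward CC of 1.84. Of 14 chondrocyte markers *Matn1*, *Col9a3* and *Snorc* were higher in SFZ cells (4 genes after quantile normalization) and 0 in CC, with sums of 81331 and 57913. Their ratios leaned to SFZ cells in 9 and to CC in 5, namely *Sox9*, *Sox5*, *Sox6*, *Col2a1* and *Col9a1*, all past neither threshold. The part of other cell types in the ratios of *Aspn*, *Prelp*, *Omd* and *Ogn* was not tested, and with bulk RNA more cells that express a gene and more RNA per cell cannot be told apart. SFZ cells and CC also came from different skeletal sites, so the site and the zone of the cartilage cannot be told apart.

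**Figure D4:**
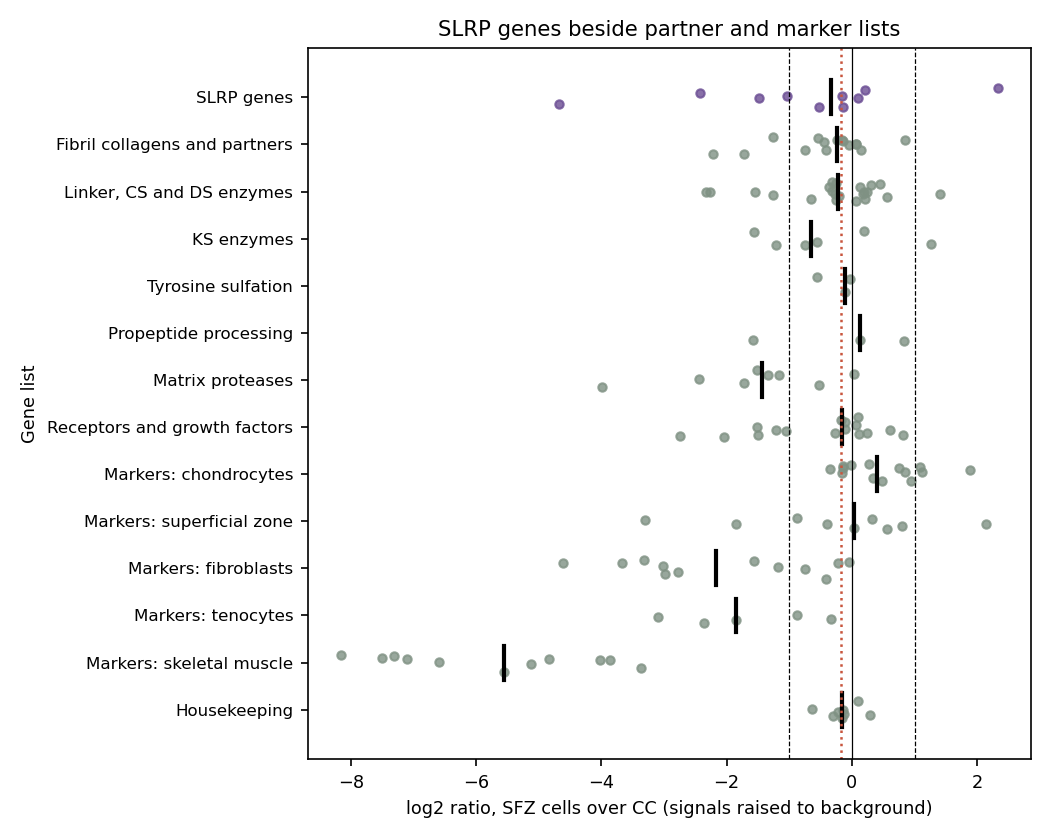
Log2 ratios (SFZ cells over CC) of SLRP genes and of lists of partner and marker genes, 1 array per cell type, signals raised to background. Points are genes above background on either array, taken on their brightest probe set, black bars are medians, dashed lines a ratio of 2 and the dotted line the median of -0.18 over all genes. The SLRP genes run from *Aspn* at -4.67 to *Chad* at 2.33, a lower bound, around a median of -0.34.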

How the data were processed

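Total RNA of cultured SFZ cells and CC was labelled from 100 ng and hybridised to Affymetrix mouse genome arrays, 1 for SFZ cells and 1 for CC. The values that the authors deposited are signals on a linear intensity scale, made with MAS5 per the submitters' processing notes. The sources used here give no MAS5 version, scaling target or detection call, so signals were taken without rescaling. The 64 control probe sets were left out, which left 45037, of which 34945 carried 1 gene symbol of the platform annotation. For all 10 SLRP genes the Entrez identifier matched RefSeq of GRCm38.p6. That table supplied gene order only, since the array names no build, and the RefSeq promoter table, of the same build, held 8 of the 10 genes.

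A gene passed if 1 or more of its probe sets passed. In lists its brightest probe set, by mean log2 signal, stood for it. Ratios with a dim signal at or under background are bounds against that level. The number of arrays limits the precision, and p-values cannot be had from 1 array per group. Named beside the SLRP genes were all relatives, and, per list, the genes that passed, up to the 6 of highest signal, with others singled out after their values were seen. The members and lists were chosen with earlier results of these data known. Calling and quantile scaling were tested on simulated data. Alternatives were equal medians, quantile normalization, raised signals, 64 added, other thresholds, unique probe sets and other ways to combine probe sets. Scripts ran in Python 3.11.15 with matplotlib 3.10.9, pandas 2.3.3, scipy 1.17.1 and numpy 2.4.6.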

Additional observations from a re-analysis of the deposited data

How the results depend on the processing

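No paired analysis was possible because each cell type has 1 array, and for the same reason no replicate could be left out. A count or ratio is called close here where it moved by at most 1.5 times. The 4 genes higher in CC were 3 with equal medians, after quantile normalization or where every probe set above background had to pass, in each case without *Ogn*, and 2 at a ratio over 3, without *Ogn* and *Omd*. *Aspn* and *Prelp* passed under all alternatives. The single gene and single probe set higher in SFZ cells, both *Chad*, became 0 at a minimum signal of 200, by construction of that threshold, and were 1 under the others. The 6 probe sets higher in CC ranged from 4 to 7. The median of the SLRP genes ranged from -0.35 to -0.15, and its distance from the median of all genes from -0.31 to -0.16. Of 84 log2 ratios of single probe sets under an alternative scaling or floor, 78 were close, 6 moved further and no called ratio changed sign. Those that moved belonged to *Aspn*, *Prelp*, *Chad* and the dim probe set of *Dcn*, where at least 1 signal is near or under background. There, signal over background limits the sizes, and for that probe set of *Dcn* both signals are under it. The 3 that crossed 0 were small ratios of *Bgn* and *Epyc*.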
